A study of Mus musculus with 12 samples.

Results

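The genes described here encode the non-catalytic partners of the histone deacetylases HDAC1 and HDAC2: the subunits of the Sin3, NuRD, CoREST and MiDAC complexes and the related MIER proteins. The list holds 35 genes, chosen by gene symbol: 13 of Sin3, 2 shared by Sin3 and NuRD, 9 of NuRD, 7 of CoREST, 3 MIER genes and 1 of MiDAC. A probe carried the symbol of 33 of them, among 19057 genes with a probe of their own symbol. Of these, 28 had a probe detected on all 3 arrays of at least 1 group and were tested among 9527 such genes. The cells were E14, a male line of mouse embryonic stem (ES) cells from strain 129/Ola, kept feeder-free on gelatin-coated plates with fetal calf serum. Gene expression was read on 12 Illumina bead arrays, 3 in each of 4 groups: wild type cells at Day 0 with LIF, Hdac1-/-; Hdac2-/wt cells at Day 4 with LIF, and the same genotypes and days after 4 days without LIF. LIF (leukaemia inhibitory factor) is a cytokine that holds mouse ES cells in self-renewal. The cells of the second genotype, called deleted cells here, carried CreER, a Cre recombinase that 4-hydroxytamoxifen (OHT) switches on. OHT (1 uM for 16 h) stands in the labels of all 12 samples, also those called wild type. Day and genotype divide the samples alike and cannot be told apart, and the deleted cells still held 1 allele of Hdac2. Whether the 3 arrays of a group stand for 3 cultures is not said in the labels, and the p-values then cover the spread between these arrays, which may be technical.

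HDAC1 and HDAC2 remove acetyl groups from histones and work inside multiprotein complexes, whose other subunits hold the enzyme, tune its activity and bring it to chromatin. Sin3 is built on the scaffold proteins SIN3A and SIN3B. NuRD joins deacetylation to an ATP-driven nucleosome remodeller, CoREST joins it to the histone demethylase LSD1 (Kdm1a), and MiDAC is assembled around DNTTIP1. In mouse ES cells NuRD is known for restraining pluripotency genes so that cells can leave self-renewal, and LSD1 for switching off stem cell enhancers during differentiation.

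Sample names in the deposited tables conflicted, which limits every statement about LIF. Each column of the non-normalized table had the rank order of a sample with the same genotype (12 of 12) but the other culture and another replicate number than its name gave. Values below follow the sample accessions. With the other naming each LIF difference changes sign and the deletion results exchange their cultures, while the deletion difference averaged over the cultures stays as it is. By the accessions, 0 of 11 ES cell markers had a higher mean without LIF in wild type or in deleted cells. Zfp42, Esrrb and Klf4 differed by -2.56, -2.55 and -2.45 (log2) in wild type and by -1.90, -1.89 and -2.04 in deleted cells. With the other naming these markers would be higher without LIF. Which naming is right was not tested. Raw median intensities ran from 91.2 to 216, and the arrays detected 14872 to 18907 probes. With LIF, the deleted arrays detected more (17299 to 18907) than the wild type arrays (14872 to 16867). Of 11 ES cell markers, 11 were measured, with mean log2 levels of 10.83 to 11.07 in wild type and 10.54 to 10.77 in deleted cells with LIF, groups that did not overlap, and of 9.71 to 9.94 and 9.43 to 9.84 without LIF, groups that did. Of 8 fibroblast markers, 5 (Col1a2, Col3a1, Lum, Dcn and Postn) had no probe detected on all arrays of a group. The mean of the other 3 was 6.95 to 7.22 in wild type and 7.71 to 7.83 in deleted cells with LIF, and 6.85 to 7.26 and 7.32 to 7.51 without LIF.

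The sequences upstream of Sap30, Sap30l and Mier3 are shown because these are 3 of the 4 subunit genes whose level differed between the genotypes averaged over the cultures, and Sap30 and Sap30l, which are paralogs, differed in opposite directions. Each line gives the 250 bases before the annotated start, 5′ to 3′ on the strand of the gene, from RefSeq on GRCm38.p6. Capitals mark the GC box GGGCGG and the CCAAT box CCAAT, each searched on both strands.
Sap30: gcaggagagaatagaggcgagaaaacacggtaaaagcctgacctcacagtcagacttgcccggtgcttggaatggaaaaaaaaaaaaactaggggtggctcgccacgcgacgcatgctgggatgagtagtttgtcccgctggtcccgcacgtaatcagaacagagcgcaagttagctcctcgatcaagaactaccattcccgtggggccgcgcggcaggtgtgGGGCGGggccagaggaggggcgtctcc
Sap30l: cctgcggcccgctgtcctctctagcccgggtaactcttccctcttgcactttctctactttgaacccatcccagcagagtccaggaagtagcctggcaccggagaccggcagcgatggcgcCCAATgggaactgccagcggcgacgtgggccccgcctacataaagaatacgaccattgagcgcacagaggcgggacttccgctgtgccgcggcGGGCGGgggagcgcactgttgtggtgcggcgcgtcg
Mier3: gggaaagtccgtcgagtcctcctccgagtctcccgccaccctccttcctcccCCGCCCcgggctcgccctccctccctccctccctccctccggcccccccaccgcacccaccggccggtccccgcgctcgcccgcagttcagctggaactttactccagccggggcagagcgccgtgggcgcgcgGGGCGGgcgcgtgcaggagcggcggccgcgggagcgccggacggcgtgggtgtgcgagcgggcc
The Sap30 window lies at chr8:57487861-57488110 on the minus strand, the Sap30l window at chr11:57801387-57801636 on the plus strand and the Mier3 window at chr13:111685928-111686177 on the plus strand. The Sap30 window held 1 GC box, starting 27 bases before the start, 18 CpG and 58% G and C. The Sap30l window held 1 GC box 36 bases and 1 CCAAT box 129 bases before the start, 24 CpG and 65.2% G and C. In the Mier3 window there were 2 GC boxes, 198 and 64 bases before the start, 34 CpG and 78.4% G and C. TATAAA and CACGTG, also searched on both strands, were in none of the 3 windows, and no matches overlapped. Over 32851 RefSeq windows of this length 32.7% held the GC box, 33.9% the CCAAT box, 12.4% TATAAA and 6.02% CACGTG, with a median of 52.4% G and C and 6 CpG. An entry existed for 29 of the 35 genes.

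Whether the partners change when Hdac1 and part of Hdac2 are lost was asked by the comparison of deleted with wild type cells. Averaged over the cultures, Sap30l was higher in deleted cells, and Sap30, Mbd2 and Mier3 were lower. That was 4 of 28 genes (1 up, 3 down) at an adjusted p under 0.05 in limma's moderated test with Benjamini-Hochberg adjustment over 9527 genes, where 24.4% of all genes tested passed (14.1% up, 10.3% down). Of the listed genes 14.3% passed, no larger a share than among all genes. The median log2 difference of the 28 was -0.02, against 0.01 over all genes. For 24 of the 28 the 95% interval of the difference lay within a 1.5-fold change in either direction, as it did for 83.4% of all genes. All 3 measured fibroblast markers (Col1a1, Thy1 and Pdgfrb) were higher in deleted cells on average, as was 1 of 2 measured endoderm markers (Dab2, 0.29), of 6 listed. Of the 11 ES cell markers 2 were lower, Pou5f1 (-0.68) and Nanog (-0.69), and 1 was higher, Dppa5a (0.29), and the 1 measured neuroectoderm marker, Nes, was lower (-0.38). The part of these markers in the results for the subunit genes, and that of the larger number of probes detected in deleted cells with LIF, was not tested. On bulk arrays, fewer cells with a transcript and less of it per cell cannot be told apart.

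The numbers of the labels paired the arrays of the 2 genotypes: same-numbered arrays deviated together from their group means, with correlations of 0.30 to 0.51 with LIF and 0.27 to 0.68 without it. With replicate number as a block, 7 of the 28 genes passed averaged over the cultures (3 up, 4 down), where 36.5% of all genes did. The 3 added genes were Sap130, Suds3 and Rcor2. In 2 genes, Sap30l and Mier3, the genotypes did not overlap in either culture, in the same direction, as in 13.7% of all genes.

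**Figure D1:**
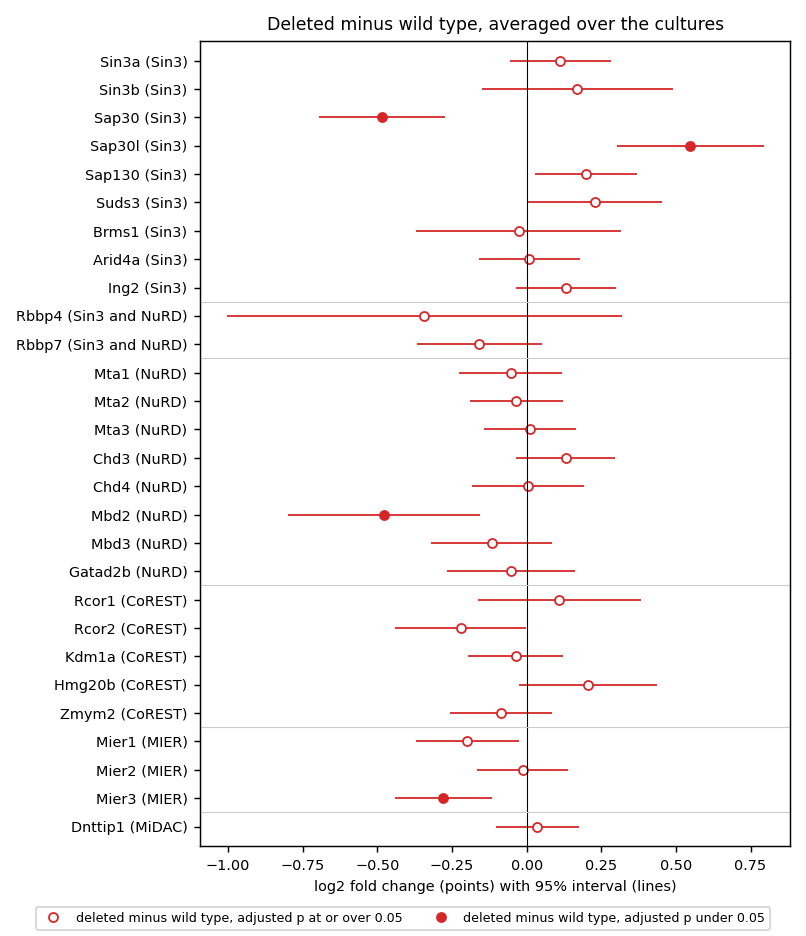
Log2 fold change of the 28 measured subunit genes between deleted and wild type cells, averaged over the cultures, with 95% intervals from limma (6 arrays against 6). Filled points passed an adjusted p of 0.05: Sap30l lies to the right of 0, and Sap30, Mbd2 and Mier3 to the left.

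Among the Sin3 genes, Sap30 and Sap30l moved apart. SAP30 is a small subunit that binds SIN3 and helps hold the deacetylase in the complex, and SAP30L is its close relative. Sap30 (probe ILMN_2694917) read 11.38, 11.57 and 11.60 in wild type and 10.81, 11.13 and 10.88 in deleted cells with LIF. These levels and all others below are log2 intensities, and differences are log2 differences, deleted minus wild type or without minus with LIF. Without LIF it read 11.12, 11.49 and 11.39 in wild type and 10.84, 11.19 and 10.79 in deleted cells. The groups did not overlap with LIF, and without LIF deleted replicate 2 lay above wild type replicate 1. Averaged over the cultures Sap30 fell by 0.49 on the log2 scale (SE 0.10, 95% interval -0.70 to -0.27, adjusted p = 0.00336, limma), a 1.4-fold decrease. The call held whichever of the 12 arrays was left out (differences of -0.55 to -0.45). The non-normalized intensities with scaled medians, in place of quantile-normalized processed ones, gave -0.31, which did not pass (adjusted p = 0.236). This setting put the median of all genes at 0.10.

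Sap30l (probe ILMN_3128784) read 10.99, 10.61 and 10.26 in wild type and 11.19, 11.14 and 11.14 in deleted cells with LIF. It read 10.41, 10.13 and 10.15 in wild type and 10.98, 10.59 and 10.79 in deleted cells without LIF. In each culture all deleted arrays lay above all wild type arrays. The spread was widest in wild type cells with LIF, where replicate 1 stood near the deleted arrays. The averaged difference was 0.55 ± 0.11 (95% interval 0.30 to 0.79, adjusted p = 0.00407), a 1.46-fold increase, and it passed without each array in turn (0.46 to 0.64). The other detected Sap30l probe (ILMN_2759792) gave 0.51 (adjusted p = 0.00309 over 15999 probes). Its differences by culture were 0.53 with LIF (adjusted p = 0.0374) and 0.49 without (adjusted p = 0.0477).

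The other Sin3 genes measured (7 of 9) did not pass in the averaged comparison. Sap130, another Sin3-associated subunit, read 9.31, 9.48 and 9.59 in wild type and 9.50, 9.74 and 9.80 in deleted cells with LIF. It read 9.39, 9.44 and 9.45 in wild type and 9.54, 9.57 and 9.70 in deleted cells without LIF. The groups overlapped with LIF and stood apart without it. Its averaged difference was 0.20 ± 0.08 (adjusted p = 0.0863, and 0.0301 with the replicate block). Suds3, which encodes a subunit that the deacetylase activity of Sin3 depends on, read 9.67, 10.07 and 10.05 in wild type and 10.07, 10.54 and 10.41 in deleted cells with LIF. It read 10.14, 10.29 and 10.43 in wild type and 10.20, 10.47 and 10.34 in deleted cells without LIF. The wild type replicate 1 with LIF was the lowest of the 12, and the genotypes overlapped in each culture. The averaged difference of Suds3 was 0.23 ± 0.10 (adjusted p = 0.128, and 0.019 with the block). The scaffolds Sin3a and Sin3b differed by 0.11 and 0.17 and the histone-reading subunit gene Ing2 by 0.13, none of them past the test with or without the block. Brms1 (-0.03), a relative of Suds3, and Arid4a (0.01), which encodes a subunit that binds the retinoblastoma protein, were near 0 on average. The interval of Brms1 was wide, -0.37 to 0.32.

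Of the NuRD genes, Mbd2 alone passed on average among 8 measured. MBD2 binds methylated CpG and is the alternative to MBD3 in the complex. Mbd2 (probe ILMN_2584527) read 8.17, 7.96 and 7.36 in wild type and 7.63, 7.64 and 7.50 in deleted cells with LIF. It read 8.93, 8.56 and 8.71 in wild type and 8.45, 7.97 and 7.63 in deleted cells without LIF. Without LIF every wild type array lay above every deleted array, by a narrow margin between wild type replicate 2 and deleted replicate 1. With LIF the groups overlapped, because wild type replicate 3 was the lowest of those 6 arrays. The averaged difference was -0.48 ± 0.15 (95% interval -0.80 to -0.16, adjusted p = 0.0328), a 1.39-fold decrease. This call held without wild type replicate 3 with LIF, wild type replicate 2 without LIF or deleted replicate 1 without LIF, and was lost without each of the other 9 arrays (adjusted p of up to 0.0803). It was also lost with neqc on the non-normalized intensities (-0.59, adjusted p = 0.059) and with scaled medians (-0.37, adjusted p = 0.0608). With the replicate block the adjusted p was 0.002.

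The remaining NuRD genes did not pass, with or without the block. Mbd3, whose protein lacks strong binding to methylated CpG in mammals, differed by -0.12 on average (95% interval -0.32 to 0.09). The 3 MTA scaffolds that anchor the deacetylase differed by -0.05 (Mta1), -0.03 (Mta2) and 0.01 (Mta3), and the remodeller genes Chd3 and Chd4 by 0.13 and 0.00. Gatad2b, whose protein bridges the MBD and CHD subunits, differed by -0.05. It was dim and was detected on 9 of 12 arrays. For these 7 genes each 95% interval lay within a 1.5-fold change.

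Rbbp4 and Rbbp7 encode WD-repeat histone chaperones found in both Sin3 and NuRD. Neither passed averaged over the cultures, with or without the replicate block. Rbbp4 read 9.62, 9.35 and 9.59 in wild type and 9.35, 8.20 and 9.32 in deleted cells with LIF. Without LIF it read 8.85, 7.79 and 9.41 in wild type and 8.56, 7.69 and 9.44 in deleted cells. Replicate 2 was the lowest array in each of the 4 groups, and the averaged difference of -0.34 ± 0.31 carried the widest error of the 28 (adjusted p = 0.451, and 0.0857 with the block). It passed with the block taken within each culture (adjusted p = 0.0173), a setting added after seeing the data. The other detected Rbbp4 probe (ILMN_1230623) pointed the other way, at 0.43 averaged (adjusted p = 0.0122 over 15999 probes) and 0.54 with LIF (adjusted p = 0.0467). The direction of Rbbp4 was therefore not settled by these arrays. Rbbp7 differed by -0.16 (adjusted p = 0.259).

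In the MIER group, which binds HDAC1 and HDAC2 through a domain like that of the MTA proteins, Mier3 was lower in deleted cells. Mier3 (probe ILMN_1260241) read 7.77, 7.63 and 7.76 in wild type and 7.44, 7.58 and 7.36 in deleted cells with LIF. It read 7.56, 7.78 and 7.57 in wild type and 7.24, 7.37 and 7.41 in deleted cells without LIF. In each culture all deleted arrays lay below all wild type arrays. Mier3 fell by 0.28 on average (SE 0.08, 95% interval -0.44 to -0.12, adjusted p = 0.0166), a 1.21-fold decrease, and passed without each array in turn (-0.31 to -0.24). With scaled medians it was -0.18 (adjusted p = 0.367). Mier1 read 7.58, 7.43 and 7.71 in wild type and 7.37, 7.61 and 7.38 in deleted cells with LIF. Without LIF it read 7.94, 7.76 and 7.71 in wild type and 7.45, 7.59 and 7.53 in deleted cells. Its groups stood apart without LIF and overlapped with it, and its averaged difference of -0.20 ± 0.08 did not pass (adjusted p = 0.087). Mier2 differed by -0.01.

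No CoREST gene of the 5 measured passed on average without the block. Rcor2, the CoREST scaffold known to be prominent in ES cells, differed by -0.22 ± 0.10 (adjusted p = 0.13, and 0.0484 with the block). With the block taken within each culture it did not pass (adjusted p = 0.0502). Its paralog Rcor1 differed by 0.11, Kdm1a by -0.04, and the accessory subunit genes Hmg20b and Zmym2 by 0.20 and -0.09. Each of these 5 intervals lay within a 1.5-fold change. Dnttip1, the MiDAC scaffold, differed by 0.04 (95% interval -0.10 to 0.17).

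**Figure D2:**
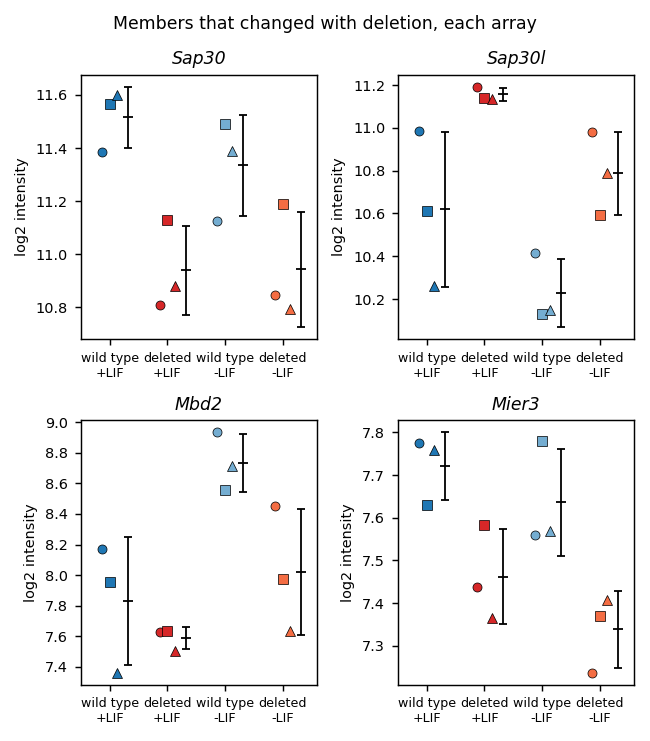
Log2 intensity of Sap30, Sap30l, Mbd2 and Mier3 on each of the 12 arrays, by group (circle, square and triangle are replicates 1, 2 and 3, and bars are mean ± SD, n = 3). Deleted arrays lie above wild type for Sap30l and below for Mier3 in each culture, while Sap30 overlaps without LIF and Mbd2 with LIF.

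By culture, each pairwise contrast rests on 3 arrays a group. With LIF, 1 of 28 genes passed (0 up, 1 down), where 10% of all genes did (6.67% up, 3.36% down). It was Sap30, at -0.58 ± 0.14 (adjusted p = 0.0209), and its call was lost without wild type replicate 2 or 3 or deleted replicate 1 or 3 (adjusted p of up to 0.0914). With scaled medians it was -0.21 (adjusted p = 0.641). Sap30l was 0.54 ± 0.16 (adjusted p = 0.0512) and Suds3 0.41 ± 0.15 (adjusted p = 0.0976). With the replicate block these reached 0.00628 and 0.00956, and 3 of 28 genes passed (2 up, 1 down) where 21.3% of all genes did. In 6 genes the groups did not overlap (2 up, 4 down), where 31.5% of all genes were so separated.

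Without LIF, 2 of 28 genes passed (1 up, 1 down), where 10.5% of all genes did (5.92% up, 4.57% down). They were Sap30l at 0.56 ± 0.16 (adjusted p = 0.043) and Mbd2 at -0.71 ± 0.21 (adjusted p = 0.0457), a 1.64-fold decrease. Sap30 was -0.39 ± 0.14 (adjusted p = 0.0893, and 0.0139 with the block), so that 3 of 28 passed with the block (1 up, 2 down), where 21.9% of all genes did. The Sap30l call held without wild type replicate 1 or 3 with LIF, wild type replicate 1 without LIF or deleted replicate 2 without LIF, and was lost without each of the other 8 arrays (adjusted p of up to 0.140). The Mbd2 call held without wild type replicate 1 or 3 with LIF or deleted replicate 1 without LIF, and was lost without each of the other 9 (up to 0.178). With the other naming of the arrays Mbd2 was -0.24 here (adjusted p = 0.505). With no probe filter, with neqc or with scaled medians, none of the 28 passed. In 8 genes the groups did not overlap (4 up, 4 down), where 29.5% of all genes were so separated.

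The second factor asked what happens to the same genes when wild type cells are left without LIF. Mbd2, Rbbp7, Chd3, Mta1 and Dnttip1 were higher without LIF and Arid4a and Rcor2 lower, by the naming used. These were 7 of 28 genes (5 up, 2 down), or 25%, where 21.1% of all genes passed (11.1% up, 10% down). By complex, 3 of 8 NuRD genes rose, as did 1 of the 2 shared genes and the MiDAC gene, while 1 of 9 Sin3 genes and 1 of 5 CoREST genes fell and 0 of 3 MIER genes passed. The median difference of the 28 was 0.01, against 0.00 over all genes. In 9 genes the groups did not overlap (7 up, 2 down), where 35% of all genes were so separated. Over the same arrays 6 of 11 ES cell markers fell and 0 rose, their mean going from 10.83 to 11.07 with LIF to 9.71 to 9.94 without. Of markers of other lineages, 1 of 2 measured endoderm genes (Dab2, 1.43) and the 1 measured neuroectoderm gene, Nes, rose. The other endoderm gene, Gata6, differed by -0.30 and did not pass (adjusted p = 0.161), and 0 of 2 measured mesoderm genes passed. Most markers listed for these lineages (6, 4 and 4) were not measured. Gata4, Sox17, Foxa2, Afp, Pax6, Sox1, Neurog2, T and Mixl1 had no probe detected on all arrays of a group. The part of these markers in the results for the subunit genes was not tested.

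Mbd2, given by array above, was higher on every wild type array without LIF than on any with LIF. The difference was 0.91 ± 0.21 (adjusted p = 0.00781), a 1.87-fold increase, and it passed without each array in turn. Rbbp7 (probe ILMN_2691192) read 10.18, 10.43 and 10.23 in wild type and 10.19, 10.19 and 10.14 in deleted cells with LIF. It read 10.48, 10.93 and 10.98 in wild type and 10.51, 10.77 and 10.48 in deleted cells without LIF. In each genotype all arrays without LIF lay above all arrays with it. The wild type difference was 0.52 ± 0.14 (adjusted p = 0.0154), lost without wild type replicate 2 or 3 of the LIF-free group (adjusted p of up to 0.0769). Of the 3 other detected Rbbp7 probes, 2 gave 0.55 and 0.51 (adjusted p = 0.00766 and 0.0229 over 15999 probes), and the dimmest gave 0.17 (adjusted p = 0.364).

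The remodeller gene Chd3 (probe ILMN_2524861) read 6.50, 6.78 and 6.70 in wild type and 6.85, 7.00 and 6.78 in deleted cells with LIF. It read 7.24, 7.06 and 7.15 in wild type and 7.24, 7.25 and 7.10 in deleted cells without LIF. It was dim, and 2 of 3 wild type arrays with LIF detected it, so its fold change there is compressed. The groups did not overlap in either genotype, and the wild type difference was 0.49 ± 0.11 (adjusted p = 0.00615), which passed without each array in turn. With neqc it was 0.93 (adjusted p = 0.00325). Its paralog Chd4, the main NuRD remodeller of ES cells, read 9.25, 9.31 and 9.48 in wild type and 9.41, 9.43 and 9.44 in deleted cells with LIF. Without LIF it read 9.69, 9.59 and 9.66 in wild type and 9.79, 9.63 and 9.30 in deleted cells. The wild type groups stood apart, but the difference of 0.30 ± 0.12 did not pass (adjusted p = 0.1). The deleted replicate 3 without LIF lay among the arrays with LIF. The other detected Chd4 probes (ILMN_2654822 and ILMN_2697652), which were dimmer, gave wild type differences of 0.03 and -0.02.

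Mta1 (probe ILMN_1225235) read 6.94, 6.82 and 6.78 in wild type and 6.88, 6.96 and 6.73 in deleted cells with LIF. It read 7.16, 7.15 and 7.44 in wild type and 7.14, 7.21 and 7.03 in deleted cells without LIF. In each genotype the arrays without LIF lay above those with it. The wild type difference was 0.40 ± 0.11 (adjusted p = 0.0223), lost without wild type replicate 2 or 3 with LIF or replicate 3 without (up to 0.109). With neqc it was 0.71 (adjusted p = 0.0133). Mta3 read 11.18, 11.13 and 11.01 in wild type and 10.96, 11.12 and 10.94 in deleted cells with LIF. Without LIF it read 11.21, 11.05 and 11.12 in wild type and 11.34, 11.18 and 11.24 in deleted cells. The wild type groups overlapped (0.02), and the deleted groups did not (0.25, adjusted p = 0.142). Mta2 differed by -0.14 in wild type cells, Mbd3 by -0.06 and Gatad2b by -0.01, and none of these passed.

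Dnttip1 (probe ILMN_1256348) read 10.28, 10.30 and 10.22 in wild type and 10.34, 10.52 and 10.42 in deleted cells with LIF. It read 10.62, 10.61 and 10.57 in wild type and 10.47, 10.50 and 10.54 in deleted cells without LIF. The wild type groups stood apart, with less spread than in any other gene given here by array, and the deleted groups overlapped. The wild type difference was 0.33 ± 0.09 (adjusted p = 0.0203), lost without wild type replicate 3 with LIF or any 1 of the 3 wild type arrays without LIF (up to 0.0587).

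Arid4a and Rcor2 went down. Arid4a (probe ILMN_1239608) read 7.46, 7.33 and 7.44 in wild type and 7.25, 6.97 and 7.13 in deleted cells with LIF. It read 6.77, 6.84 and 6.83 in wild type and 6.95, 7.28 and 7.15 in deleted cells without LIF. Deleted arrays of both cultures lay between the wild type groups. The wild type difference was -0.60 ± 0.11 (adjusted p = 0.00182), a 1.52-fold decrease that passed without each array in turn. It was -1.03 with neqc and -0.32 with the mean of both probes, and passed in each (adjusted p = 0.00123 and 0.0239). The other detected Arid4a probe, which was dimmer, gave -0.04 (adjusted p = 0.858), so the probes disagreed.

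Rcor2 (probe ILMN_1214713) read 7.70, 8.26 and 7.97 in wild type and 7.71, 7.65 and 7.72 in deleted cells with LIF. It read 7.31, 7.63 and 7.53 in wild type and 7.28, 7.52 and 7.17 in deleted cells without LIF. In each genotype every array without LIF lay below every array with it. The wild type difference was -0.49 ± 0.14 (adjusted p = 0.0277), lost without wild type replicate 2 or 3 with LIF or replicate 1 or 3 without (up to 0.121). Rcor1, Kdm1a, Hmg20b and Zmym2 differed by -0.14 to 0.10 and did not pass. With scaled medians Mbd2 and Arid4a stayed past the threshold in this comparison and the other 5 did not. With no probe filter Mta1, Rcor2 and Dnttip1 did not pass (adjusted p of 0.0513 to 0.0785).

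**Figure D3:**
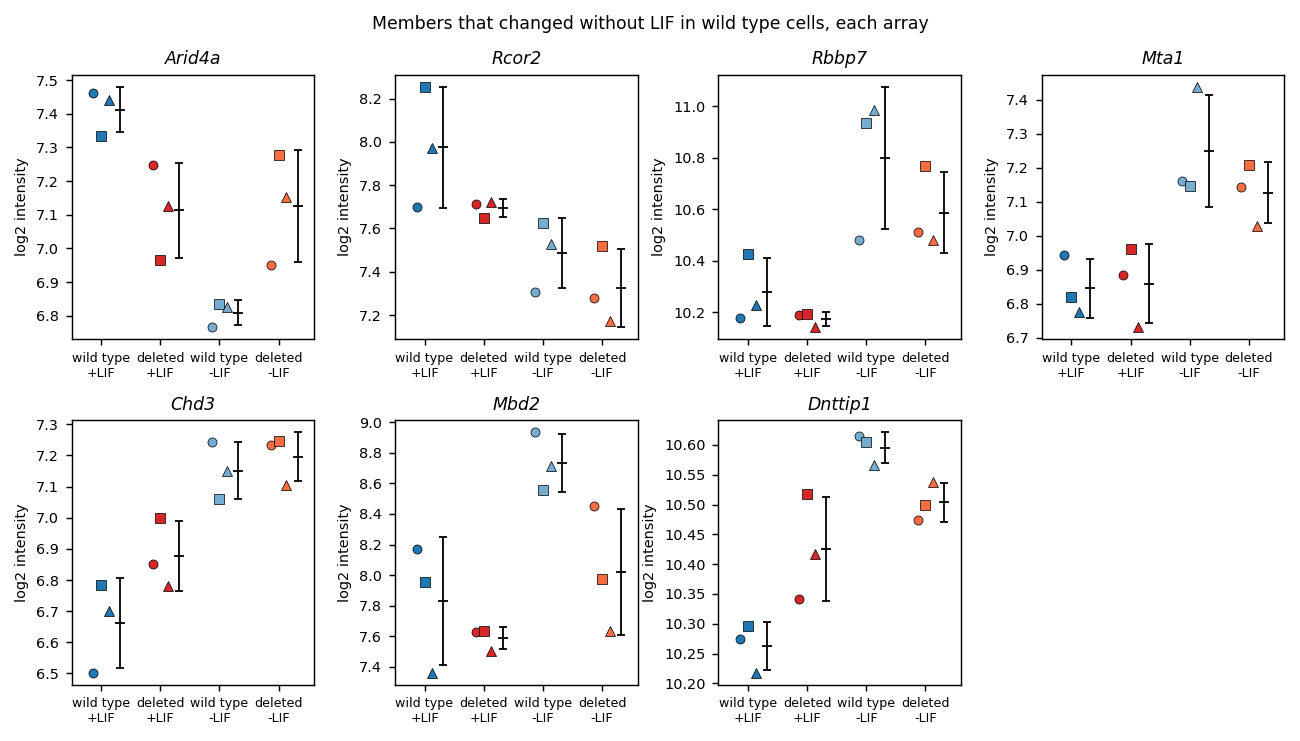
Log2 intensity on each of the 12 arrays of the 7 subunit genes that passed between wild type cells without and with LIF (circle, square and triangle are replicates 1, 2 and 3, and bars are mean ± SD, n = 3). Wild type arrays without LIF lie apart from those with LIF in all 7, lower in Arid4a and Rcor2 and higher in the other 5.

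In deleted cells the same removal of LIF gave 0 of 28 genes past the threshold in limma (8 at an unadjusted p under 0.05), where 10.8% of all genes passed (5.03% up, 5.75% down). The differences were 0.41 ± 0.14 for Rbbp7 (adjusted p = 0.075), 0.32 ± 0.11 for Chd3 (0.0828), -0.37 ± 0.14 for Rcor2 (0.126) and 0.27 ± 0.11 for Mta1 (0.163). Mbd2 differed by 0.43 ± 0.21 (0.231), with deleted arrays without LIF spread from 7.63 to 8.45. Arid4a differed by 0.01 (95% interval -0.23 to 0.25) and Dnttip1 by 0.08 (-0.12 to 0.28). Same-numbered arrays of the deleted groups deviated together (correlations of 0.34 to 0.57). This pairing joins arrays across the cultures by their numbers, which 0 of 12 arrays keep with the other naming. The replicate block was not run with that naming. With the replicate block 6 of 28 genes passed, where 19.4% of all genes did. Those up were Rbbp7 (adjusted p = 0.0203), Chd3 (0.0466), Mbd2 (0.0456) and Rcor1 (0.40, 0.0413). Those down were Rcor2 (0.0375) and Sap30l (-0.37, 0.0452). The other detected Rcor1 probe (ILMN_1215969), which was dimmer, gave 0.11 in deleted cells (adjusted p = 0.785 in limma without the block). In 7 genes the groups did not overlap (4 up, 3 down), where 31.3% of all genes were so separated. Of 11 ES cell markers 7 fell and 0 rose, and their part was not tested.

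**Figure D4:**
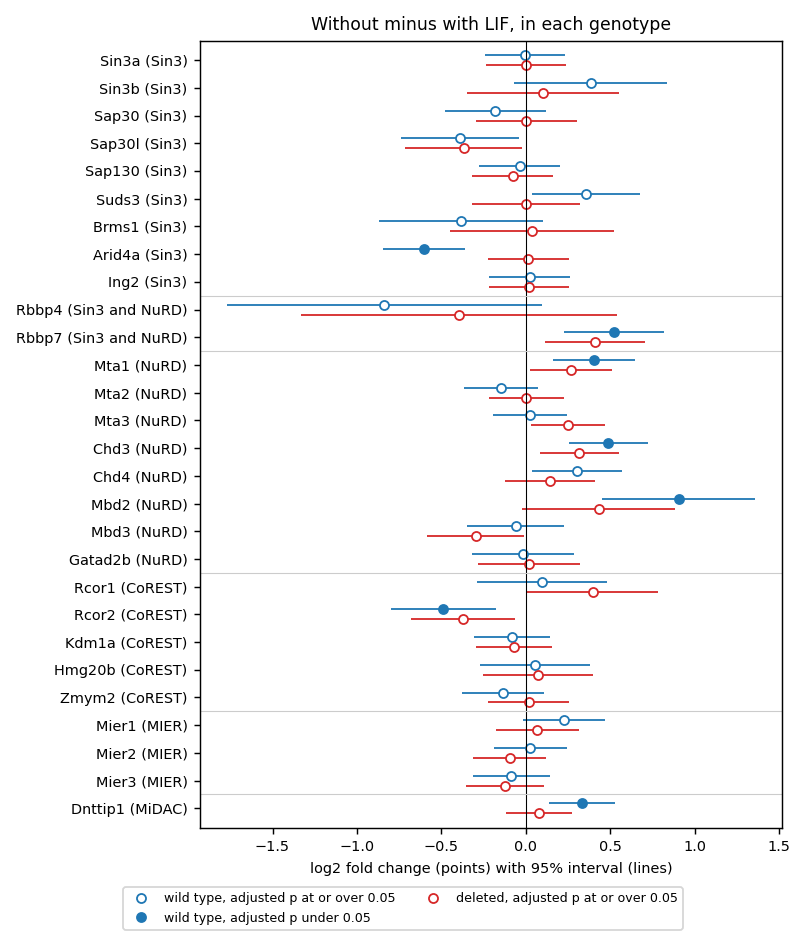
Log2 fold change without against with LIF for the 28 measured subunit genes in wild type (blue) and deleted cells (red), with 95% intervals from limma. The 7 filled points are wild type differences past an adjusted p of 0.05, none of the red points is filled, and the intervals of the genotypes overlap in every gene but Arid4a.

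A count of 7 in wild type and 0 in deleted cells does not show that the genotypes differ, and the difference was tested as the interaction of deletion and LIF. No gene of the 28 passed it (1 at an unadjusted p under 0.05), where 0.0525% of all genes did (0.021% up, 0.0315% down), or 0.136% with the replicate block. The interaction was 0.62 ± 0.16 for Arid4a (95% interval 0.28 to 0.96, adjusted p = 0.309, and 0.105 with the block). In 2 of the 28, Arid4a and Dnttip1, the deleted and wild type arrays stood apart in opposite directions in the 2 cultures, as they did in 0.504% of all genes. For Mbd2 the interaction was -0.47 ± 0.30 (adjusted p = 0.794) and for Dnttip1 -0.25 ± 0.13 (adjusted p = 0.694). For Rbbp7, Chd3, Mta1 and Rcor2 it lay between -0.17 and 0.12, with standard errors of 0.15 to 0.20. The interval stayed within a 1.5-fold change for 19 of 28 genes, and for 50.9% of all genes. The 4 pairwise comparisons share arrays, so their values for 1 gene are not independent of each other.

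The other listed genes gave no test. Brms1l and Gatad2a had no probe of that symbol and were not analysed here. Sap18, Arid4b, Ing1, Rcor3 and Phf21a had 9 probes in all, each detected on 0 to 5 of the 12 arrays, so their levels were not detectable on enough arrays to be compared. Of the 64 probes of the listed genes 38 were kept, and 26 of the 28 tested genes were detected on all 12 arrays.

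Related genes outside the list were followed through lists made from the same complexes. Of 27 further subunits and recruiters 16 were measured. Averaged over the cultures Cdk2ap2, a relative of a NuRD subunit, was higher in deleted cells (0.44 ± 0.12, adjusted p = 0.0141). Sall1, a zinc-finger factor that recruits NuRD, was lower (-0.43 ± 0.07, adjusted p = 0.00102), as was Gse1, found with CoREST (-0.34 ± 0.11, adjusted p = 0.0355). That made 3 of 16 (1 up, 2 down), or 18.8%, where 24.4% of all genes passed. With the replicate block 9 of 16 passed (4 up, 5 down), where 36.5% of all genes did. Those added were Zmynd8 (-0.47, adjusted p = 0.166, and 0.00269 with the block), Ctbp2 (0.33, 0.0865 and 0.00289) and Zfp592 (-0.26, 0.0863 and 0.036), with Chd5 (0.22), Kdm5a (0.19) and Foxk2 (-0.18) at 0.0398 to 0.0465 with the block. With LIF, Sall1 was lower in deleted cells (-0.52 ± 0.10, adjusted p = 0.00712). It was the 1 gene of the 16 that passed there, where 10% of all genes did. With the block 2 of the 16 passed as higher and 2 as lower, where 21.3% of all genes passed. Without LIF, the histone demethylase gene Kdm5a was higher in deleted cells (0.38 ± 0.10, adjusted p = 0.0236), the 1 gene of the 16 that passed there, where 10.5% of all genes did. With the block 5 of 16 passed, where 21.9% did. Between wild type cells without and with LIF, 5 of the 16 passed, or 31.2%, where 21.1% of all genes did. Zmynd8, a chromatin reader found with NuRD, was higher (1.60 ± 0.34, adjusted p = 0.00434). Zmym3 (-0.98), a relative of Zmym2, the corepressor gene Ctbp2 (-0.58), Sall1 (-0.56) and Gse1 (-0.54) were lower. In deleted cells Zmym3 (-0.76) and Sall1 (-0.37) were lower as well, 2 of 16 where 10.8% of all genes passed, and 8 of 16 (3 up, 5 down) with the block, where 19.4% did.

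Averaged over the cultures, 2 of 3 measured class I deacetylase genes (1 up, 1 down) and 1 of 4 of the NCoR complex, which carries Hdac3, passed, where 24.4% of all genes did. Of the class I deacetylases Hdac2 differed by -0.24 ± 0.12 in deleted cells with LIF (adjusted p = 0.215) and -0.13 without (0.517), and Hdac1 was not analysed here. Hdac3 was higher (0.24 ± 0.07, adjusted p = 0.0193) and Hdac8 lower (-0.27 ± 0.08, adjusted p = 0.0241) in deleted cells averaged over the cultures. Of 4 measured NCoR genes, Tbl1xr1, which encodes a WD-repeat subunit, was lower in deleted cells on average (-0.40 ± 0.09, adjusted p = 0.00558). Its paralog Tbl1x was higher without LIF in wild type (0.73) and deleted cells (0.52).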

How the data were processed

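Biotin-labelled cRNA of 12 samples was read on 1-colour Illumina bead arrays of 45281 probes. The authors' processed table, keyed by sample, held intensity values on a linear scale that shared 1 minimum and 1 maximum on all arrays. The other deposited table, not normalized, held per the file headers an average bead intensity with its detection p-value on every array. GenomeStudio was named in the submitters' processing notes, with no version given, and its settings are not given in the sources used here.

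Processed intensities were corrected with normexp (offset 50), taken to log2 and quantile normalized. Kept probes had a detection p under 0.05 throughout at least 1 group of 3 arrays (15999 probes). Detection p-values and alternatives built on the non-normalized intensities were joined to arrays by rank order (Spearman's rho was 1 for the match and no higher than 0.836 otherwise). The annotation gave 1 symbol to 34885 probes, several to 18 and none to 10378. Of all probes, 34807 matched the reference by gene ID, which changed 0 symbols. Each gene took its kept probe of highest mean (9527 genes). Values are per probe, so levels of different genes are not compared, and the offset compresses values close to the detection floor (6.40 to 6.53).

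The model, fitted with limma 3.58.1 in R 4.3.3, had 4 group means over 12 arrays (8 residual degrees of freedom) and tested 6 contrasts, two-sided, with Benjamini-Hochberg adjustment at 0.05. Errors are moderated standard errors. The code was checked on simulated data. Array number limits the precision, with a median standard error of 0.12 for the listed genes in a comparison of 3 arrays with 3.

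The genes and lists were chosen with earlier results of these data known. Values by array are given for each listed gene past the threshold in any contrast and for the next by adjusted p, up to 15, and Rbbp4 was added after its values were seen, for its spread. Alternatives were no background correction, no probe filter, a filter on all 12 arrays, the mean of a gene's probes, neqc, scaled medians, the replicate block, the other naming and each array left out. Neqc and scaled medians started from the non-normalized intensities.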

Additional observations from a re-analysis of the deposited data

Results flagged for a closer look

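For 2 of the 28 measured subunit genes the deleted and wild type arrays separated in opposite directions in the 2 cultures, as they did for 0.504% of all genes. Arid4a was lower on every deleted array than on every wild type array with LIF (-0.30) and higher on every one without LIF (0.32), a difference between the deletion effects of 0.62 on the log2 scale. The difference itself was tested and did not pass in limma (adjusted p = 0.309, and 0.105 with the replicate block). It passed under 1 of 21 alternatives, the block taken within each culture, which was added after seeing the data (adjusted p = 0.0442). Over all 21 the adjusted p ran from 0.0442 to 0.712. The dimmer Arid4a probe gave an interaction of 0.04.

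Dnttip1 was higher on every deleted array with LIF (0.16) and lower on every one without LIF (-0.09), a difference of -0.25 that did not pass (adjusted p = 0.694, and 0.435 with the block). Under 0 of the 21 alternatives did it pass (adjusted p of 0.378 to 0.941). With the other naming of the arrays both differences change sign. Groups of 3 arrays were not tested for outlying samples.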

How the results depend on the processing

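Averaged over the cultures, Sap30l passed under all of the alternatives run, 3 to 4 of the 28 genes passed without each array in turn, and 1710 to 2554 of all genes did (2320 with all arrays). Scaled medians left 1 of the 28 and the replicate block gave 7. The block within culture also gave 7, with Rbbp4 (adjusted p = 0.0173) in place of Rcor2 (0.0502), and the blocks gave 3482 and 3772 of all genes. With LIF, where 1 of the 28 passed, 2 passed with uncorrected log2 values, with probes detected on all 12 arrays, with the mean of a gene's probes and with the other naming, 3 with the block, 6 with the block within culture and 0 to 2 without each array. Of all genes 955 passed there, and 534 with no probe filter, 2026 and 2383 with the blocks and 350 to 1190 without each array. Without LIF, where 2 passed, 0 passed with no probe filter, neqc or scaled medians, 1 with the other naming, 5 with the block within culture and 0 to 2 without each array. Of all genes 999 passed there, and 595 with no filter, 326 with scaled medians, 2084 and 2402 with the blocks and 400 to 1172 without each array. In wild type cells without LIF the 7 became 4 with no filter, 2 with scaled medians and 3 to 8 without each array. Same-numbered wild type arrays of the 2 cultures deviated together in replicates 1 and 3 (correlations of 0.52 and 0.36) but not in replicate 2 (-0.04). The block, which was not run with the other naming, gave 12 (7 up, 5 down). Of all genes 2010 passed, and 868 with scaled medians, 3021 with the block and 1350 to 2228 without each array. In deleted cells the 0 became 1 with scaled medians, 6 with the block and 0 to 1 without each array, and the 1027 of all genes became 655, 1849 and 568 to 1137. For the interaction, 0 of the 28 passed without each array and 1 (Arid4a) with the block within culture. The 5 of all genes became 8 with uncorrected values, 1 with probes detected on all arrays, 1 with scaled medians, 13 and 109 with the blocks and 2 to 9 without each array. The other naming turned the LIF differences in wild type cells to 0.60 (Arid4a), -0.52 (Rbbp7), -0.40 (Mta1), -0.49 (Chd3), -0.91 (Mbd2), 0.49 (Rcor2) and -0.33 (Dnttip1). In deleted cells it turned them to 0.37 (Sap30l), -0.41 (Rbbp7), -0.32 (Chd3), -0.43 (Mbd2), -0.40 (Rcor1) and 0.37 (Rcor2), and the interactions to -0.62 (Arid4a) and 0.25 (Dnttip1). Scaled medians shifted the median of all genes to 0.17 with LIF, 0.10 averaged and -0.14 for deleted cells without LIF and for the interaction. They changed the split of calls from 635 higher and 320 lower to 1036 and 38 with LIF, from 564 and 435 to 283 and 43 without LIF, from 479 and 548 to 110 and 545 in deleted cells and from 1343 and 977 to 1480 and 140 averaged. Fewer calls without the filter go with the 19057 genes tested there. The cause of the other changes was not tested. Between wild type cells without and with LIF the block added Suds3 (0.36, adjusted p = 0.0127) and Sin3b (0.38, 0.0243), which were higher. It also added Rbbp4 (-0.84, 0.00704), Brms1 (-0.38, 0.0204) and Sap30l (-0.39, 0.0238), which were lower. The other detected Rbbp4 probe gave 0.08 there (adjusted p = 0.778 without the block). No other call of a listed gene changed with the block than those given in the report.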
